A study of Mus musculus with 7 samples.

Results

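Area CA2 of the hippocampus was collected by laser capture from 3 mice, and its RNA was made into 3 sheared libraries that were amplified with 16, 18 and 20 cycles of PCR. These are 3 of the 7 libraries of the series and were chosen by their labels, not by any measured value. The other 4 libraries, which were not sheared, compared 2 library kits and 2 RNA extractions. All 3 sheared libraries came from naive male mice of the Amigo2-GFP line on C57BL/6, aged 6 weeks, in which a transgene marks CA2 cells with a green fluorescent protein that guided the laser. RNA was extracted with the QIAGEN kit and made into stranded libraries with the NuGEN kit. The captured tissue holds the cell bodies of CA2 together with glia, vessels and fibers that cross the layer. Each column name carries its own number, read here as that of the mouse, so cycle number and mouse cannot be told apart. No cycle number was repeated. The question here is which transcripts and gene classes made up the CA2 transcriptome in every library, and which classes differed most between libraries once genes of like abundance were compared.

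CA2 is a short stretch of pyramidal neurons between CA1 and CA3, known for its role in social memory and for its resistance to the long-lasting synaptic strengthening that is readily evoked in CA1. Its neurons are marked by Rgs14, a regulator of G protein signaling that restrains plasticity, by the adhesion protein Amigo2, and by Pcp4, a small protein that binds calmodulin. Pyramidal neurons use glutamate, release it through the SNARE machinery of synaptic vesicles, and respond to it through calcium, calmodulin and the kinase CaMKII.

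Gene-assigned reads numbered 33239387 at 16 cycles, 34320087 at 18 and 39256039 at 20. The ribosomal RNA precursor Rn45s took 1.69 to 2.06% of these reads and was left out of the tests. Between 13687 and 13806 genes had at least 10 normalized counts, a normalized count being a read count divided by the size factor of its library. Protein-coding genes took 97.0, 96.8 and 96.6% of the reads and long noncoding genes 0.541, 0.575 and 0.584%. The 50% of reads taken by the most abundant genes came from 824, 820 and 826 genes. Across the 13922 genes with a mean of at least 10, Pearson's r of the log2 values between libraries was 0.944 to 0.951. Genes are not independent replicates, and the libraries share the kit and a like depth.

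The most abundant genes of captured CA2 were those of synaptic release, calcium signaling, the actin cytoskeleton and energy supply, and they hardly differed between libraries. Levels were compared between genes as normalized counts per kb of merged exons. Of the 100 highest genes in each library, 94 were shared by all 3 libraries. These 94 genes held 12.9% of the reads in each library. The ratio of the highest to the lowest library had a median of 1.06 over these genes, and 90 of them stayed within 1.2-fold. Calm2, 1 of 3 calmodulin genes (chr17:87433412-87446935, minus strand, GRCm38), stood highest with a mean of 96642 normalized counts per kb. The whole-gene counts of Calm2 were 117114, 115156 and 117090, so its lowest library lay within a few percent of its highest.

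**Figure D1:**
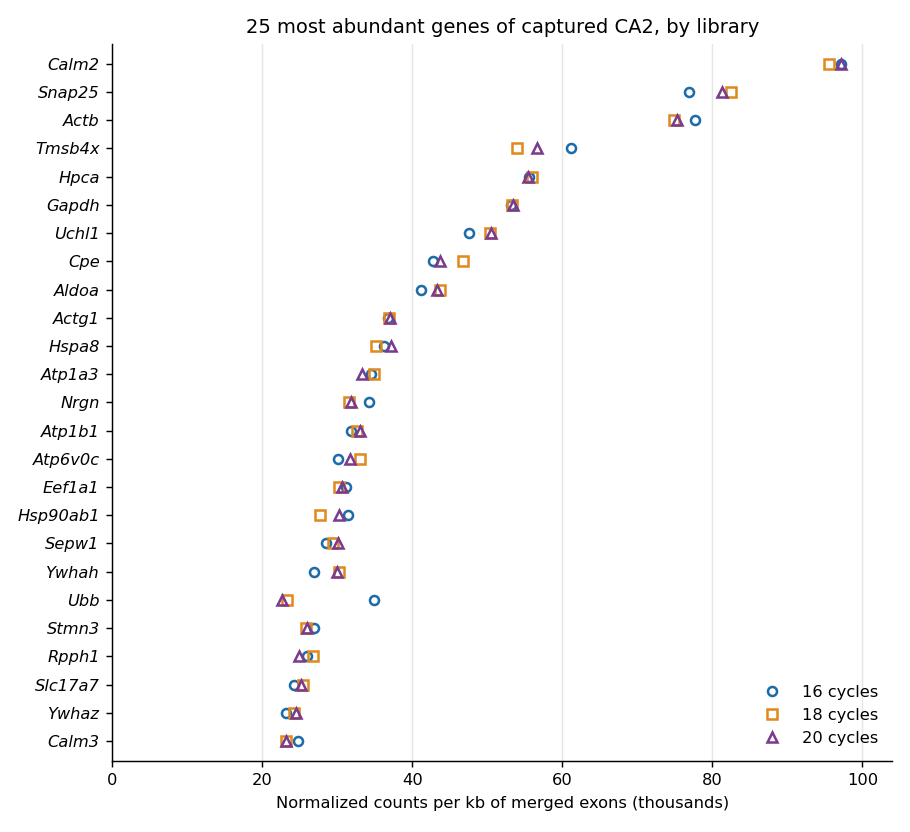
Normalized counts per kb of merged exons (axis in units of 1000) of the 25 most abundant named genes, with 1 symbol per library for 16, 18 and 20 cycles. The 3 symbols of most genes overlap, as for Gapdh at 79492, 79602 and 79852 normalized counts, while Ubb stands apart at 16 cycles (52248 normalized counts against 34950 and 33864).

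Genes of the presynaptic terminal formed the largest of the classes examined. The 35 genes of presynaptic release took 3.27, 3.40 and 3.37% of the reads, and 11 of them were among the 94 shared genes. Snap25, a SNARE protein of the plasma membrane, had 171850, 184181 and 181616 normalized counts. Syt1, the calcium sensor of release, had 99085, 105584 and 103297. Dnm1, the GTPase that pinches off endocytic vesicles, had 70497, 76300 and 79200, and Slc17a7, the vesicular glutamate transporter, had 72382, 76025 and 75285. The 16-cycle library was the lowest for all of these 4 genes, by small margins.

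Calcium signaling followed. The 19 genes of calmodulin, CaMKII and their partners summed to 722351, 708918 and 707041 normalized counts, which was 2.04% of the reads at 16 cycles, and 10 were among the shared genes. Camk2a, the alpha subunit of CaMKII, had 104443, 104348 and 100492 normalized counts, and Camk2b, the beta subunit, had 76123, 74157 and 77051. The hippocampal calcium sensor Hpca had 162259, 163496 and 161719. These levels differed by a few percent, and the libraries had no common order.

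Among the other large classes, the 14 actin and thymosin genes took 1.39, 1.34 and 1.33% of the reads. Actb had 149129, 143859 and 144597 normalized counts and Tmsb4x, which binds actin monomers, 83812, 73901 and 77647. Tubulins and microtubule-associated proteins took 1.36, 1.34 and 1.32%, led by Map1b, and nuclear-encoded subunits of oxidative phosphorylation took 1.28, 1.25 and 1.28%, led by the ATP synthase genes Atp5a1 (40719, 39200 and 42249) and Atp5b. Glycolytic enzymes, led by Gapdh and Aldoa, took 1.10, 1.12 and 1.15%. Chaperones, led by Hspa8 (86794, 83974 and 88918) and Hsp90ab1, took 1.15, 1.10 and 1.16%. The 80 measured genes of cytosolic ribosomal proteins together took 0.946, 0.912 and 0.944%. No row of the table was a gene of the mitochondrial genome. Genes with near-identical relatives or pseudogenes, such as those of calmodulin, actin, tubulin, ubiquitin and ribosomal proteins, are uncertain in their exact level, since the treatment of reads with several matches is not given in the sources used here.

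All 16 markers of CA2 pyramidal neurons were measured in these libraries, with means from 247 (Fgf2) to 50574 (Adcy1) normalized counts. They summed to 160297, 144455 and 152481 normalized counts. Rgs14 (chr13:55369732-55384687, plus strand) had 28269, 25481 and 28266 normalized counts. It was the 94th gene by mean level per kb but was not among the 100 highest of every library. Amigo2 had 13149, 12130 and 13744, and Pcp4, which was among the 94 shared genes, had 15460, 13439 and 13665. Adcy1, a calcium-stimulated adenylyl cyclase, was the most abundant of the list with 54284, 48369 and 49068. Fgf2, Avpr1b (575, 438 and 491), Tgfb1i1 and Actn2 had means below the median of all genes. Summed over lists of unlike size, the markers of CA1 and of dentate granule cells were far lower. The 8 of CA1 summed to 6106, 3601 and 3503 and the 9 of dentate granule cells to 1776, 1841 and 1327. The 7 markers of CA3 summed to 61715, 63537 and 62288, of which Spock1 (33248, 34451 and 32865) and Cpne4 (21947, 22110 and 22049) made up most. These genes encode a proteoglycan and a copine. Glial and vascular markers were present in every library, with 74239, 74154 and 70504 normalized counts over the 15 genes of astrocytes, 3929, 3972 and 4291 over the 14 of microglia, and 15443, 16738 and 14961 over the 14 of endothelial and mural cells. In such bulk tissue, fewer cells of a type and less RNA per cell cannot be told apart.

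Some abundant rows carried the symbol of a microRNA. Of 570 such rows 40 were measured, and all 13 with a mean of at least 1000 normalized counts lay on the same strand inside a longer gene that had no row of its own in this table. The mature sequences of the 4 highest rows are shown because each is far shorter than the RNA that the reads can come from. The hairpins of these 13 rows measured 59 to 110 bases, while mature microRNAs, cut from them by Dicer, guide silencing complexes to messenger RNAs by pairing of the seed (bases 2 to 8, in capitals, from RefSeq on GRCm38.p6).
mmu-miR-770-5p (Mir770, in Meg3, chromosome 12): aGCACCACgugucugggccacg
mmu-miR-5114 (Mir5114, in Scd2, chromosome 19): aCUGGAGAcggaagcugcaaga
mmu-miR-5130 (Mir5130, in Kctd12, chromosome 14): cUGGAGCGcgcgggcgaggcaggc
mmu-miR-5113 (Mir5113, in Tnrc6b, chromosome 15): aCAGAGGAggagagagauccugu
No seed was shared by these 4 sequences.

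The row Mir770 (chr12:109563692-109563785, plus strand) had 11797, 15162 and 18326 normalized counts, and Mir5114 had 13808, 13682 and 13380. Mir5130 had 7923, 7109 and 8483, and Mir5113 had 5874, 4776 and 5496. Mir770 was lowest at 16 cycles and highest at 20, Mir5114 differed by a few percent, and the other 2 rows were lowest at 18 cycles. In the table of the unsheared libraries, 12 of the 13 longer genes had a row of their own, and 0 of the 12 microRNA symbols did. As reads per 1000000 assigned reads (RPM), the mean of the microRNA row over the sheared libraries was 0.602 to 1.73 times that of the longer gene in the unsheared NuGEN library of QIAGEN RNA. For Mir5114 the 3 sheared libraries had 390, 387 and 378 RPM and the fatty acid desaturase Scd2 had 393 in that unsheared library. Values of Mir770 and of the other such rows are therefore reported by the row's symbol and are not read as levels of the microRNA. In all, 83 of the 13922 tested rows overlapped a longer gene without a row, among them Snurf with 62941, 62985 and 60668 normalized counts, and these were left out of the order of abundance, a rule chosen after the data were seen.

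**Figure D2:**
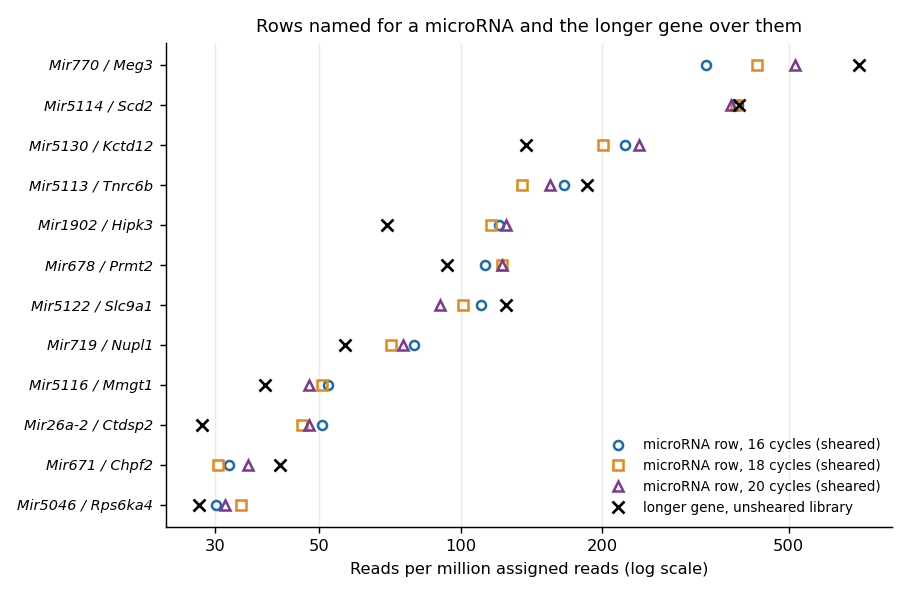
RPM (log scale) of the 12 rows named for a microRNA with a mean of at least 1000, in the 3 sheared libraries (open symbols), beside the longer gene that overlaps each of them in the unsheared NuGEN QIAGEN library (crosses). Rows and longer genes lie within 0.602 to 1.73 times of each other, from Mir770 and Meg3 at the top to Mir5046 and Rps6ka4.

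Differences between libraries shrank with abundance. The median ratio of the highest to the lowest library was 3.08 among the 2896 genes between 10 and 100 normalized counts on average, 1.39 among the 5168 genes from 100 to 1000, 1.14 among the 5164 genes from 1000 to 10000, and 1.07 among the 694 genes above. Of these 694 genes, 672 (96.8%) stayed within 1.2-fold. Among the 11026 genes that averaged 100 or more, 574 (5.21%) differed by 2-fold or more. The standard deviation (SD) of the log2 values over the 3 libraries was 3.14, 3.29, 3.42 and 4.58 times that of counting error alone in these 4 ranges of abundance. The spread thus exceeded counting error by a like factor over most of the range, in libraries from different mice with different cycle numbers.

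Because spread depends on level, each gene's SD was ranked among the 400 genes nearest to it in mean level, on a scale of 0 to 100. A gene above 90 is called variable here, and 1363 of 13922 genes (9.79%) were. With 1 library per mouse and cycle number, this is a description of these 3 libraries, with no test. Over all 13922 genes, the libraries of 16, 18 and 20 cycles were the highest for 4547, 4737 and 4638 genes. At the median over their members, the most variable classes were markers of choroid plexus and meninges (98.3), markers of CA1 pyramidal neurons (98.0), markers of oligodendrocytes (89.0), ubiquitin genes (83.0), long nuclear noncoding RNAs (79.6) and synaptic adhesion proteins (79.4). Lowest in rank were small structured RNAs (33.3), calmodulin and CaMKII genes (33.8), Rab GTPases (34.5), markers of excitatory neurons (35.0) and replication-dependent histones (35.0). At low levels (median means of 37.4 and 79.3), small structured RNAs and histones had median SDs of 0.514 and 0.459, against 0.1855 over all genes. The median rank of all genes was 50.0. These medians depend on single libraries: without the 20-cycle library calmodulin and CaMKII genes stood at 54.5 with 4 of 19 called, long nuclear noncoding RNAs at 43.4 and synaptic adhesion genes at 49.8.

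**Figure D3:**
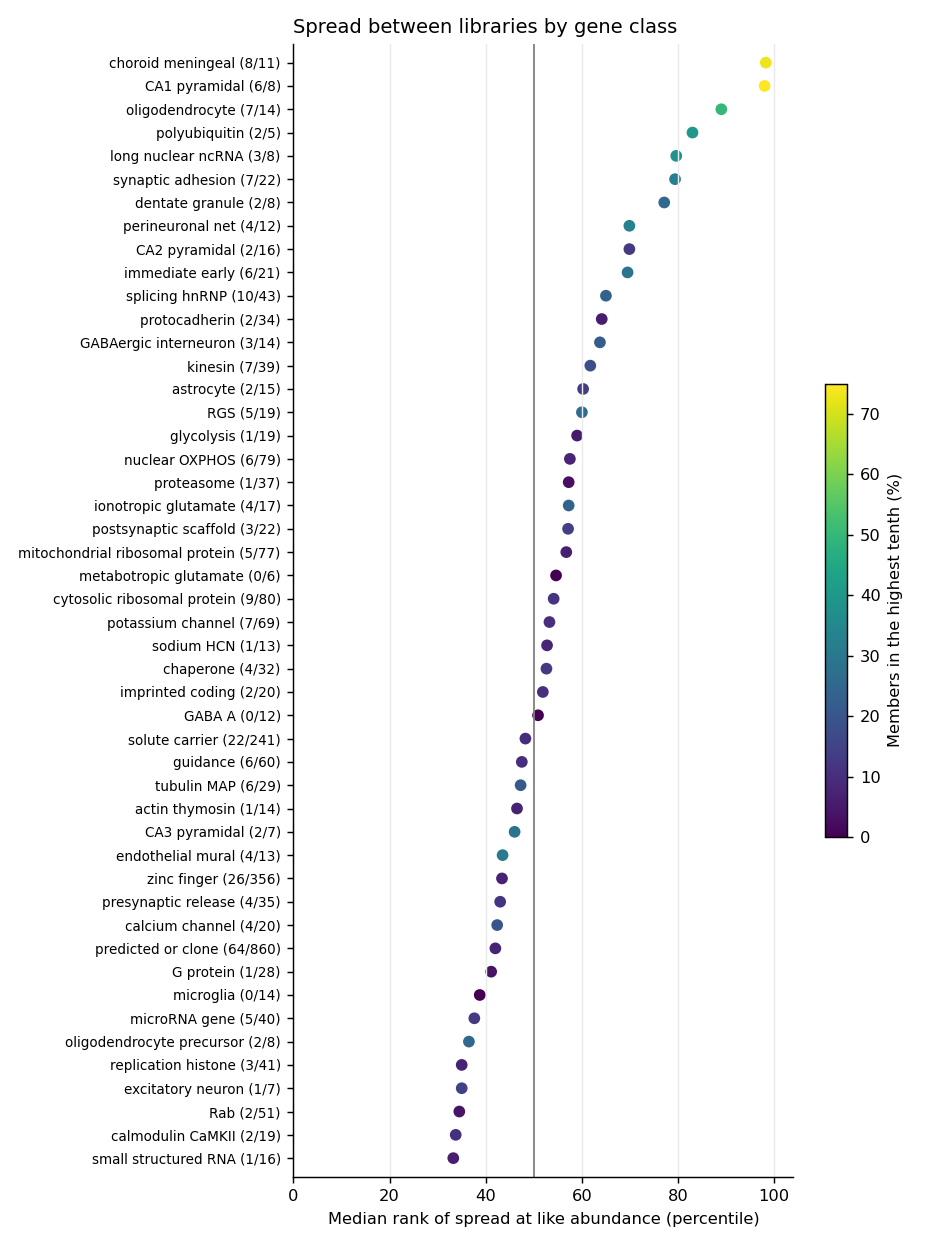
Median rank of the spread between the 3 libraries among genes of like abundance (percentile, horizontal axis) for each gene class with at least 5 measured members. The counts in parentheses are the members above the 90th percentile and the members measured, colors give the former as a percentage, and the grey line marks 50. Choroid and meningeal markers (8 of 11) and CA1 markers (6 of 8) stand at the top, and calmodulin and CaMKII genes (2 of 19) near the foot.

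**Figure D4:**
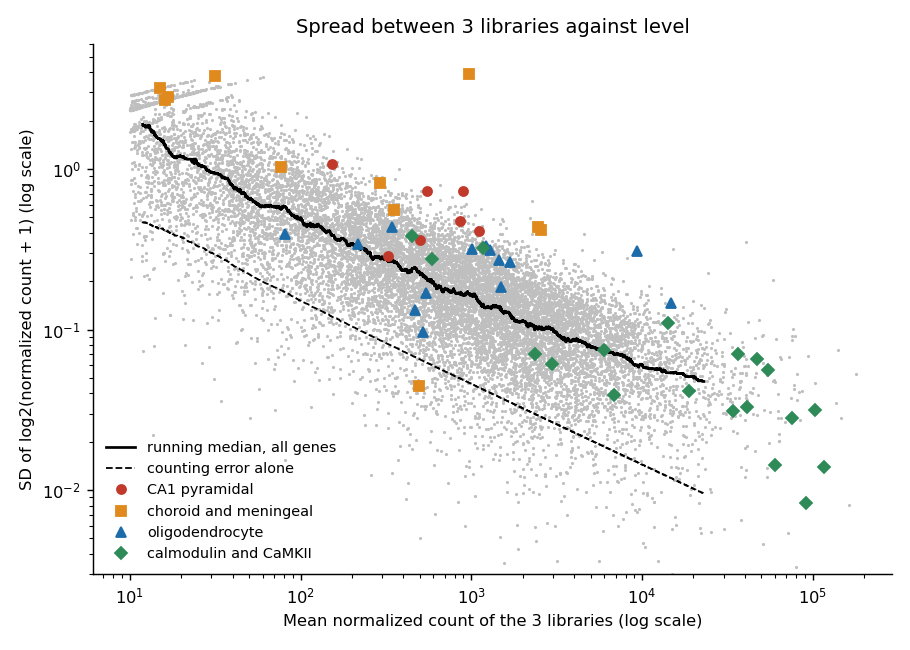
SD of log2(normalized count + 1) over the 3 libraries against the mean normalized count, on log scales. Grey points are the 13922 genes, the solid line is their running median and the dashed line is counting error alone. Most CA1 (red) and choroid and meningeal markers (orange) lie above the solid line, oligodendrocyte markers (blue) lie on both sides of it, and calmodulin and CaMKII genes (green) mostly below it.

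Markers of choroid plexus and meninges were the most variable class, with 8 of 11 measured members called (72.7%, against 9.79% of all genes). Ttr, the thyroid hormone carrier that choroid plexus secretes, had 12.8 normalized counts at 16 cycles, 2796 at 18 and 93.0 at 20. Clic6, a chloride channel protein of the same epithelium, had 94.9 at 18 cycles and no read in the other libraries, and Kcnj13, a potassium channel, had 45.4 and no read. The 18-cycle library thus stood apart for these genes, at levels far below those of abundant neuronal genes. Enpp2, the lysophospholipase autotaxin, had 1759, 3219 and 2410, and Igf2 had 223, 478 and 363, both with the 18-cycle library highest. Ptgds, a prostaglandin D synthase of meninges and oligodendrocytes, had 1856, 2519 and 3302. The full list of 13 summed to 4799, 10129 and 6934 normalized counts, of which Enpp2 and Ptgds made up most in every library. Folr1 was at 0 in all 3 libraries. Kl, with 510, 480 and 498, was steady. Without the 18-cycle library 4 of the 7 members then measured were called. Clic6, Kcnj13, Dcn and Slc6a13 reached the mean of 10 only through that library, so the filter itself favors their spread. With only genes of a mean of at least 100 ranked, 5 of 6 members were called. What part choroid and meningeal cells have in other differences of the 18-cycle library was not tested.

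Markers of CA1 pyramidal neurons were high in the 16-cycle library. Of 8 measured members 6 were called (against 9.79% of all genes), 2 without the 16-cycle library, and among the 7 with a mean of at least 100 the 16-cycle library was the highest for 6. Fibcd1 (chr2:31813290-31846005, minus strand), a receptor for acetylated structures, had 1335, 850 and 486 normalized counts. Pou3f1, a transcription factor, had 900, 389 and 363, Wfs1, a protein of the endoplasmic reticulum, 1492, 892 and 928, and Mpped1 1169, 605 and 810. The levels at 16 cycles stood clear of the other 2 libraries for these genes, whereas Nov had 322, 264 and 394. Dcn, which is also a meningeal marker, had 0, 46.4 and 3.61 and reached the mean of 10 only through the 18-cycle library. Prkcd, a protein kinase C from the CA3 list, followed the pattern of the CA1 genes with 1014, 464 and 478. The 16-cycle library was also the highest for 11 of the 16 CA2 markers, and the 18-cycle library was the lowest for 11. Of the CA2 markers 2 were called (12.5%, against 9.79% of all genes), Pcp4 and Actn2. The part of CA1 tissue in these levels or in other differences of the 16-cycle library was not tested.

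Markers of oligodendrocytes were low in the 16-cycle library and high in the 18-cycle library. Of 14 measured members 7 were called (50.0%, against 9.79% of all genes). Among the 13 with a mean of at least 100 the 18-cycle library was the highest for 12 and the 16-cycle library the lowest for 11. Mbp, myelin basic protein, had 13576, 16477 and 14169 normalized counts. Mag, Cnp and Mal, further proteins of the myelin sheath, had 952, 1508 and 1179, then 1422, 2036 and 1624, then 1017, 1569 and 1266. The 3 libraries had the same order for each of these genes. Ugt8a (508, 565 and 499), which makes the galactolipids of myelin, and Cryab (430, 516 and 462) differed less. The 14 markers summed to 29656, 39865 and 33808. The sum of the 8 markers of oligodendrocyte precursors did not follow, with 3941, 3895 and 3556. Its members were mixed: the 18-cycle library was the highest for 4 of 8 and the 16-cycle library the lowest for 2. Of the 8, 2 were called (against 9.79% of all genes), 1 without the 16-cycle and 0 without the 18-cycle library. These 2 ran in opposite directions at 18 cycles. Olig1 (902, 1259 and 830) was highest there, and Vcan (1523, 1063 and 1211), also a perineuronal net gene, was lowest. Without the 16-cycle or without the 18-cycle library 2 oligodendrocyte markers were called.

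**Figure D5:**
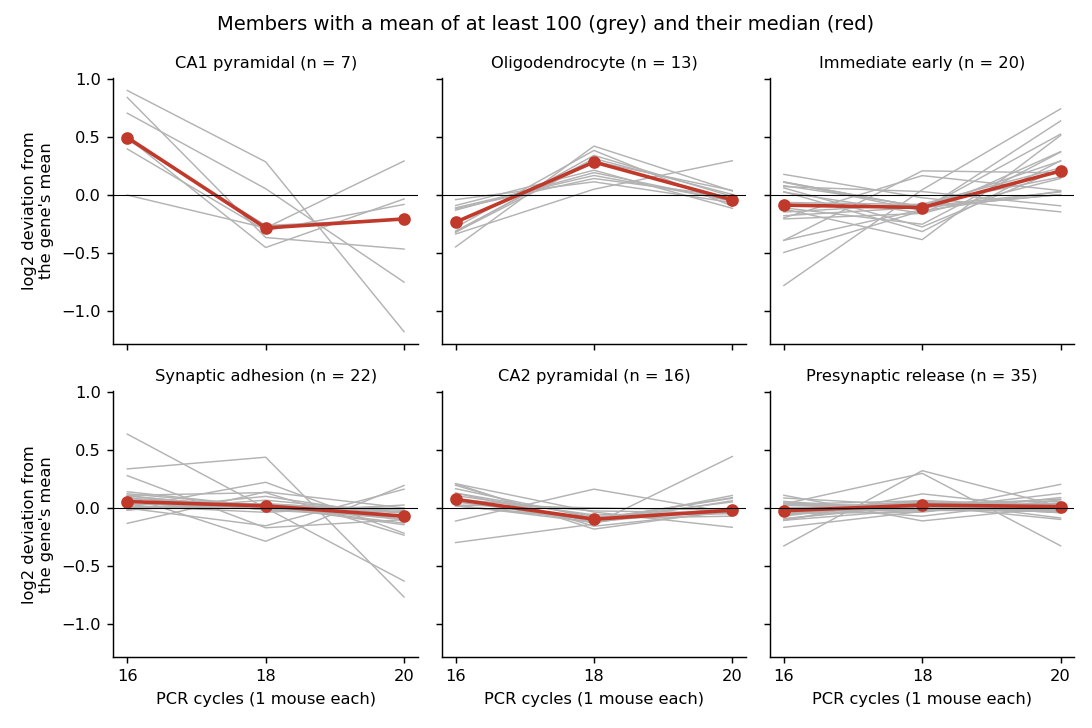
Log2 deviation of each gene from its own mean over the 3 libraries (vertical axis) against the number of PCR cycles, 1 mouse each, for members with a mean of at least 100 normalized counts (grey lines) and their median (red). CA1 markers lie highest at 16 cycles (median 0.49), oligodendrocyte markers at 18 cycles (0.28) and immediate early genes at 20 cycles (0.20), while medians of presynaptic release genes lie within 0.03 of 0.

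Of the 5 ubiquitin genes 2 were called (against 9.79% of all genes). Ubb (chr11:62551171-62553213, plus strand), which encodes a chain of ubiquitin repeats, had 52248, 34950 and 33864 normalized counts, so it was highest at 16 cycles, and had a rank of 100. Rps27a, which encodes ubiquitin fused to a ribosomal protein, had another pattern with 4345, 3707 and 4367. Ubb was the only one of the 25 most abundant genes above a rank of 90. Among the 94 shared genes 7 were: Ubb, Pcp4, Wipf3, Rmrp, Tubb2a, Rps29 and Vsnl1.

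Of the long nuclear noncoding RNAs 3 of 8 measured members were called (37.5%, against 9.79% of all genes). The 16-cycle library was the lowest for each of these 3. Malat1 (chr19:5795690-5802672, minus strand), a transcript of nuclear speckles, had 49547, 64683 and 61586 normalized counts. Kcnq1ot1, the antisense RNA that silences an imprinted domain, had 544, 1141 and 1109, and Snhg11 had 6740, 7458 and 8869. Not every member differed: Rian had 10088, 9782 and 9685 and Tug1 had 5946, 5893 and 5517. Without the 20-cycle library the median rank of the class fell below that of all genes, with 2 called. Among small structured RNAs, Rpph1, the RNA of ribonuclease P, had 8275, 8519 and 7917 and was not called, and Rmrp, the RNA of the related ribonuclease MRP, had 4450, 5074 and 3686 and was.

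Synaptic adhesion genes were lowest at 20 cycles in 16 of 22 members, and 7 of 22 were called (31.8%, against 9.79% of all genes). Tenm2 (chr11:36006656-37235964, minus strand), a teneurin that binds latrophilins across the synapse, had 3310, 2128 and 1374 normalized counts. Tenm1 had 4496, 5231 and 3857, and Lphn3, a latrophilin, 2733, 2778 and 2153. Among abundant members, Nrxn2, a neurexin, had 22717, 21139 and 19834, and Lphn1, also a latrophilin, had 26250, 26074 and 24955. Neuroligins, the partners of neurexins, ranged from steady (Nlgn1, 7365, 7540 and 7384) to called (Nlgn2, 9707, 9015 and 8142). Without the 20-cycle library 2 of the 22 were called.

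Immediate early genes were mostly at their highest in the 20-cycle library. Of 21 measured members 6 were called (28.6%, against 9.79% of all genes). Among the 20 with a mean of at least 100 the 20-cycle library was the highest for 12. Npas4 (chr19:4984355-4990316, minus strand), a transcription factor induced by neuronal activity, had 499, 642 and 1098 normalized counts. Nr4a1, an orphan nuclear receptor, had 1496, 1573 and 2076, Junb 952, 984 and 1424, and Btg2 105, 188 and 305. Arc, which acts in receptor endocytosis, had 4102, 3249 and 4591. For Egr1 (6612, 5841 and 6367), the most abundant transcription factor of the list, and for Homer1 (7065, 6859 and 6298) the 20-cycle library was not the highest. Jund, with 3841, 3340 and 3069, ran the other way. Without the 20-cycle library 1 member was called.

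The matrix of perineuronal nets, which in CA2 surrounds excitatory neurons, had 4 of 12 measured members called (33.3%, against 9.79% of all genes). Acan, its main proteoglycan, had 2142, 1341 and 1853 normalized counts and Hapln1, the link protein that anchors it to hyaluronan, 602, 350 and 689, so both were lowest at 18 cycles. Vcan had 1523, 1063 and 1211, while Ncan, also a proteoglycan, had 13388, 14243 and 12024. Bcan (2977, 2720 and 3119) and Hapln4 (11718, 12133 and 12441) stayed below a rank of 90. Without the 18-cycle library 0 of 12 were called.

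Among interneuron markers 3 of 14 were called, against 9.79% of all genes. Gad1 and Gad2, which synthesize GABA, had 5032, 4385 and 4790 and then 2630, 2509 and 2759 normalized counts and were not called. The called members were the neuropeptides Vip (188, 454 and 173) and Npy (550, 272 and 491), which ran in opposite directions at 18 cycles, and Kit (5040, 5887 and 6123), a receptor tyrosine kinase. The neuropeptides Sst (1071, 1059 and 819) and Cck (23867, 23253 and 22022) were not called. Without the 18-cycle library 1 interneuron marker was called. Among dentate granule markers Calb1, a calcium buffer, had 419, 258 and 125 and Lct had 259, 252 and 83.0, and 0 were called without the 20-cycle library. Gfap and Slc1a2, an intermediate filament protein and a glutamate transporter of astrocytes, just passed a rank of 90 with 1105, 1435 and 986 and with 33641, 34448 and 30426, and 0 astrocyte markers were called without the 18-cycle library. None of the 14 microglial markers was called, against 9.79% of all genes, and Csf1r had 547, 594 and 637. Without the 16-cycle library 1 was. Of the endothelial and mural markers 4 of 13 were called, and 2 without the 18-cycle library. Among the 4 were Flt1 (731, 835 and 414), a receptor of vascular endothelial growth factor, and the smooth muscle actin Acta2 (2.13, 80.4 and 13.5). Acta2 reached the mean of 10 only through the 18-cycle library.

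Called members of further classes, against 9.79% of all genes, were 6 of 79 for oxidative phosphorylation, 5 of 77 for mitochondrial ribosomal proteins, 9 of 80 for cytosolic ribosomal proteins, 1 of 37 for the proteasome, 1 of 19 for glycolysis, 4 of 32 for chaperones, 4 of 35 for presynaptic release, 3 of 22 for postsynaptic scaffolds, 4 of 17 for ionotropic glutamate receptors, 0 of 12 for GABA-A receptors, 2 of 51 for Rab GTPases and 26 of 356 for zinc finger proteins. Without the 16-cycle library 13 genes of oxidative phosphorylation, 7 of presynaptic release, 4 of the proteasome, 2 of glycolysis and 1 GABA-A receptor were called. Without the 18-cycle library 6 postsynaptic scaffold, 4 proteasome and 2 GABA-A receptor genes were called, and without the 20-cycle library 1 postsynaptic scaffold gene, 2 glycolytic genes, 1 ionotropic glutamate receptor and 5 proteasome genes were. Rps29, a ribosomal protein gene with a very short transcript, had 4950, 4362 and 6303 normalized counts and was among the called. Splicing factors and hnRNP proteins had 10 of 43 called, for instance Srsf5 (5680, 5309 and 7103) and Sf3a1 (2944, 2513 and 3851), both highest at 20 cycles. Without the 20-cycle library 2 of the 43 were called. Calcium channels had 4 of 20 called, including the T-type subunits Cacna1g (732, 317 and 290) and Cacna1i (1081, 808 and 433).

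Transcript length had little bearing on the rank outside the shortest genes. Among genes that averaged 100 normalized counts or more, the share called was 18.2% of 66 genes with under 500 bases of merged exons, 11.3% of 355 genes from 500 to 1000, 8.96% of 1797 from 1000 to 2000, 9.37% of 4025 from 2000 to 4000, 9.89% of 3770 from 4000 to 8000 and 11.1% of 961 above, against 9.75% of all 10974 with a length. The median deviation of a length class from its genes' means was at most 0.04 log2 in either direction, and this largest value was -0.04 for genes under 500 bases at 18 cycles.

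The variable genes did not come from a single library. Of the 1363, the library farthest from the gene's mean was that of 16 cycles for 192 genes that were high and 229 that were low there, that of 18 cycles for 223 and 283, and that of 20 cycles for 170 and 266. The 20 named genes with the highest rank and a mean of at least 100 included 2 CA1 markers, Fibcd1 and Pou3f1, besides Ttr, Cacna1g, Cacna1i, Tenm2 and Kcnab1. Abcc9, a subunit of potassium channels in mural cells, had 159, 227 and 26.2 normalized counts. Ttll4, a tubulin ligase, had 200, 73.2 and 365, and Pias4, a SUMO ligase, had 752, 317 and 886. The first was low at 20 cycles only, and the other 2 were low at 18 cycles only. Kcnh7, a potassium channel, had 788, 439 and 287, Cpne7, a copine, had 3260, 4929 and 5466, and Phkb, a subunit of phosphorylase kinase, 1079, 1387 and 681. Rabep2 (273, 238 and 51.5), Thsd7a (1643, 1484 and 873) and Golga4 (3026, 2705 and 1655) were low at 20 cycles, Tmem205 (426, 149 and 555) was low at 18 cycles, and Exoc7 (1953, 2483 and 1519) and Orc4 (1506, 2360 and 1591) were high at 18 cycles.

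A straight line over 16, 18 and 20 cycles was fitted to each gene with limma, and Benjamini-Hochberg adjustment covered all 13922 genes. It called 17 genes (0.122%), of which 6 were higher (0.0431%) and 11 lower (0.079%) with more cycles, and 611 genes had an unadjusted p under 0.05. With 3 libraries only 1 degree of freedom remains. The spread was taken wholly from genes of like level, so a gene's own scatter about its line had no weight. A p here therefore says nothing of the spread between mice at 1 cycle number, nor of how well a straight line fits. The ubiquitin gene Ubb (-0.16 log2 per added cycle with a standard error of 0.0147, adjusted p = 2.76e-22) fell, as did the CA1 marker Fibcd1 (-0.36, 0.0734, adjusted p = 0.00137). Tenm2, the postsynaptic scaffold Shank1 (28014, 24352 and 20552 normalized counts), the potassium channel subunit Kcnab1 (2098, 1384 and 1070), Cacna1i, the actin-binding Tmsb10 (1501, 1206 and 702), the Golgi protein Golga4 and the microtubule-binding Dclk1 (33958, 30392 and 28206) and Map1b (147667, 138197 and 133432) fell as well. Map1b changed little in size, with a slope of -0.04. Most of the fall of Ubb lay between 16 and 18 cycles (52248, 34950 and 33864 normalized counts).

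Malat1 (0.08, standard error 0.0125, adjusted p = 1.35e-06), Cpne7, Ptgds, the imprinted gene Nnat (1443, 2346 and 2794 normalized counts; slope 0.24, adjusted p = 0.00206 from limma), the row Mir770 and Ttr passed in the other direction. Ttr and Malat1 were not ordered by cycle, since the 18-cycle library was the highest for both. By class, against 0.122% of all genes, the test was passed by 1 of 8 CA1 markers, 2 of 11 choroid and meningeal markers and 2 of 5 ubiquitin genes. It was also passed by 1 of 22 synaptic adhesion genes, 1 of 8 long nuclear noncoding RNAs, 2 of 29 tubulin and microtubule genes and 1 of 14 actin and thymosin genes. Further calls were 1 of 22 postsynaptic scaffolds, 1 of 20 calcium channels, 1 of 69 potassium channels, 1 of 20 imprinted coding genes and 1 of 40 rows named for a microRNA. None was called among 14 oligodendrocyte markers, 21 immediate early genes and 16 CA2 markers. The median slope of the CA1 list was -0.15 log2 per cycle beside 0.0004 over all genes. For Npas4 the slope was 0.28 (standard error 0.0783, adjusted p = 0.119 from limma) and for Pou3f1 -0.33 (0.0911, adjusted p = 0.125), and both missed the threshold. edgeR's quasi-likelihood test on the recovered reads called 12 genes and DESeq2 called 7, and 6 of the 17 genes passed in every setting tried. The calls of Ubb and Malat1 (adjusted p = 1 for each), Nnat (0.0804), Ptgds (0.0755) and Golga4 (0.209) were lost in DESeq2, and those of Cacna1i, Tmsb10, Kcnab1, Dclk1, Map1b and Ttr were lost in both count tests.

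The unsheared libraries of other mice give a scale for these class differences, side by side and without a test, since the tables were normalized separately. The CA1 list took 173, 102 and 98.9 RPM in the sheared libraries, and 182, 108, 184 and 90.1 in the unsheared libraries of NuGEN PicoPure, NuGEN QIAGEN, Clontech PicoPure and Clontech QIAGEN. The 13 oligodendrocyte markers found in both tables took 799, 1078 and 916 RPM in the sheared libraries and 506 to 965 in the unsheared ones. Choroid and meningeal markers took 136, 286 and 196 against 65.5 to 120, and immediate early genes 971, 891 and 1007 against 874 to 1489. Of the 100 highest genes per kb, 65 to 70 were shared between the mean of the sheared libraries and each unsheared library.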

How the data were processed

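RNA-Seq was measured in 7 libraries, of which the 3 sheared NuGEN libraries with 16, 18 and 20 PCR cycles are described. Per the labels and methods, the authors aligned paired reads to mm10 with STAR 2.4.1d, counted them per gene with featureCounts and normalized them with DESeq2. The signal values deposited by the authors are normalized counts, that is reads over a library's size factor. Dividing by the value of 1 read returned whole reads (tolerance 0.01 read) for 100% of nonzero entries, so reads could be recovered. The study names GENCODE M9 gene models for counting, but many symbols of this table look like another gene set that is not named with it. Of 22814 named rows, 21732 matched GENCODE vM21 by symbol, 770 by an older symbol and 312 not at all, and 99.2% of tested genes had a length. The 26 rows whose symbols had become dates were left out.

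Genes needed a mean of 10 normalized counts, and ribosomal RNA rows were left out. Abundance was ordered per kb of merged exons. Spread was the SD of log2(normalized count + 1), ranked among 400 genes of nearest mean. Slopes were fitted with limma 3.58.1 (trend, pseudocount 1, threshold 0.05) in R 4.3.3; edgeR 4.0.16 and DESeq2 1.42.0 on the recovered reads were alternatives, beside a pseudocount of 10, TMM scaling, means of 1 or 100, ribosomal RNA kept, 100 neighbors, the range in place of the SD, thinning to the smallest library, and each library left out. The slope and rank procedures were tested on simulated counts. Python 3.11.15, numpy 2.4.6, pandas 2.3.3, scipy 1.17.1 and matplotlib 3.10.9 were used.

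Genes were named by rule: the 25 highest per kb, the 4 most abundant and the variable members of each list, the 20 most variable with a mean of at least 100, those past the slope threshold, and Rgs14, Amigo2 and Pcp4. Members named beyond this rule, to show steady or opposite values, were chosen after their values were seen. Some genes that met the rule are not reported here. The members and the 51 lists were chosen with earlier results of these data known. Intervals for shares of reads cover counting error only.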

Additional observations from a re-analysis of the deposited data

Results flagged for a closer look

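Reads outside the comparisons were also present. The 26 rows whose symbols a spreadsheet had turned into dates held 0.257, 0.25 and 0.248% of the assigned reads at 16, 18 and 20 cycles, and their genes were not analysed here. The ribosomal RNA precursor Rn45s, left out of the tests, held 1.69, 1.86 and 2.06% of the assigned reads, so its share was ordered with the cycles and with the mice. With 1 library per cycle number there is no spread to set this order against.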

How the results depend on the processing

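No paired analysis was possible because each cycle number has 1 library from its own mouse. Between 1363 and 1422 genes were called variable with other pseudocounts, scalings, filters on low values, windows, measures of spread or thinning, except 1082 where only genes with a mean of at least 100 were ranked. Leaving out 1 library gave 1383 to 1423 genes, but only 706 to 774 of these were among the 1363, so which genes are variable rests on all 3 libraries. Without the 16-cycle library 2 CA1 and 2 oligodendrocyte markers were called, without the 18-cycle library 4 choroid and meningeal and 2 oligodendrocyte markers and 0 perineuronal net genes, and without the 20-cycle library 1 immediate early and 2 synaptic adhesion genes. Of 399 counts of called list members in settings with all 3 libraries, 381 were within 1.5 times the value reported, as were 102 of 150 such counts with 1 library left out. The slope called 15 to 18 genes in the other settings of limma, 12 with edgeR and 7 with DESeq2, and without a library it leaves no residual degree of freedom, so that fit was not run. Ttr missed with a pseudocount of 10 (adjusted p = 0.133), with genes from a mean of 1 kept (0.0758), in edgeR (1) and in DESeq2 (1), and passed in the other settings of limma. Within limma, Map1b and Dclk1 also missed with a pseudocount of 10 (adjusted p = 0.139 and 0.0646). Both missed too with genes from a mean of 1 kept (0.324 and 0.103) and with a mean of at least 100 (0.179 and 0.061). The number of genes among the 100 highest of every library was 94, and 90 to 100 in the alternatives, but with no length scaling only 54 of the 94 were among them. Genes between 10 and 100 normalized counts had a median ratio of 3.08 between libraries, with a median SD 3.14 times that of counting error alone.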
